A study of Mus musculus with 42 samples.

Results

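The replication-dependent histone genes were taken as the 67 mouse protein-coding genes whose symbol begins with Hist1h, Hist2h, Hist3h or Hist4h, out of 21897 protein-coding genes with a unique symbol. By class they comprised 6 H1, 18 H2A, 18 H2B, 12 H3 and 13 H4 genes. The data were chromatin immunoprecipitation sequencing (ChIP-seq) of RNA polymerase II (Pol II) and of acetylated lysine on the tail of histone H3 (H3K27ac) in bone marrow-derived macrophages (BMDMs). Cells came from male wild-type (WT) and Nur77-knockout (KO) mice of the C57Bl6/J background, aged 6 to 12 weeks, and were differentiated for 7 days in medium conditioned by L929 cells. WT and KO BMDMs were left unstimulated (0 h) or received lipopolysaccharide (LPS, 100 ng/ml) for 1 h or 18 h. Each of these 6 groups held 3 Pol II libraries, 3 H3K27ac libraries and 1 input library, 42 in all. Per the study's methods a loxP-flanked Nr4a1, the gene of Nur77, was deleted in the whole body through Cre driven by a cytomegalovirus promoter. KO mice without expression of Cre were then produced, and their WT littermates were used beside them. The labels, in contrast, give the KO genotype only as cre. The study's methods speak of biological replicates, but no source used here says whether those of a group came from separate mice or cultures, so p-values measure the spread between these libraries.

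Replication-dependent histone genes encode the linker histone H1 and the core histones H2A, H2B, H3 and H4 that package newly made DNA. Unlike most protein-coding genes they have no introns, and their transcripts end in a short stem-loop in place of a poly(A) tail. The stem-loop is bound by SLBP, and the coactivator NPAT gathers at the clusters in histone locus bodies during S phase. Bone marrow-derived macrophages divide in culture, and LPS, a ligand of Toll-like receptor 4, switches on their inflammatory genes. The question put to these data was how Pol II and H3K27ac over the histone clusters changed with LPS and whether the changes differed without Nur77.

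The 67 genes lay in 7 blocks of the mm10 genome. On chromosome 13 the Hist1 set held 54 genes in 4 blocks: the first segment at chr13:21715763-21837530 with 18 genes, the second at chr13:22035164-22043676 with 5, the third at chr13:23531050-23764406 with 29, and a pair at chr13:23933773-23934851, Hist1h2ba and Hist1h2aa, which are known as testis genes. The Hist2 set of 10 genes lay at chr3:96219865-96270132, the 2 Hist3 genes at chr11:58948920-58956830, and Hist4h4 alone at chr6:136801553-136804415. The median gene was 539 bp long, so neighbours often shared a measured region. With a window of the gene body and 500 bp on each side, 48 of the 67 windows overlapped another member's, and the Pol II regions of all libraries joined into 22 merged regions over the members, 18 of which held more than 1 member. A count of members is therefore a count of overlapping measurements.

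Nearly identical copies add to this. Of the 67 genes, 24 shared over 50% of their 100-base stretches with another place in the members' windows. Hist1h2bq, Hist1h2ao, Hist1h2ap, Hist1h2br and Hist2h2aa2 shared all of them. The rest of the genome was not searched. Values of these copies are uncertain, since the treatment of multiply mapped reads is not given in the sources used here.

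The stem-loop was read from the mm10 genome within 150 bases past the stop codon, on the strand of each gene. A strict pattern, a stem GGCTCT closed by AGAGCC around a loop TTTN, was found in 51 of the 67 members, and a looser one, GGNNCT closed by ANNNCC around TNTN, in 65. Among 21643 other genes 1 held the first pattern (0.00462%) and 15 the second (0.0693%). The site began 22 to 59 bases past the stop, with a median of 31, and Hist2h2be and Hist1h2an held none in this window. Loop bases are in capitals in the 16-base variants, which are shown because they separate the H4 genes from the other classes.
Hist1h1e (chr13:23621782-23621797, minus strand; 41 members): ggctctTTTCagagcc
Hist2h2ab (chr3:96220333-96220348, plus strand; 9 members): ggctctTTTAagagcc
Hist4h4 (chr6:136803998-136804013, minus strand; 8 members, all H4): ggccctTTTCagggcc
Hist2h4 (chr3:96262939-96262954, minus strand; with Hist1h4i): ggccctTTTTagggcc
Hist1h4b (chr13:23757366-23757381, plus strand; with Hist1h4j): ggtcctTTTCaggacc
Hist1h4a (chr13:23760800-23760815, minus strand): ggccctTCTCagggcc
Hist1h3g (chr13:23535889-23535904, plus strand): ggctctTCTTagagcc
Hist2h2ac (chr3:96220418-96220433, minus strand): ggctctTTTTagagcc
The variants with a changed stem were found only in H4 genes among the 65 members with a site.

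Promoters were taken from RefSeq (GRCm38.p6, 250 bases before to 50 after the start), where 62 of the 67 genes matched. On either strand the TATA-box letters TATAAA stood in 35 of the 62, against 13.6% of all promoters in that table. The CCAAT letters stood in 53, against 37.4% of all: in every matched H1, H2A, H2B and H3 promoter and in 3 of 12 H4 promoters. The octamer ATTTGCAT was found in 7 of 18 H2A and 6 of 16 H2B promoters and in no H1, H3 or H4 promoter, against 1.74% of all. The AP-1 letters TGANTCA stood in 3 of the 62 (7.81% of all). The 120 bases before the RefSeq start are shown for 5 genes that differ in their Pol II course below, with TATAAA and CCAAT (either strand) in capitals.
Hist2h2ac (chr3:96220881-96221000, minus strand): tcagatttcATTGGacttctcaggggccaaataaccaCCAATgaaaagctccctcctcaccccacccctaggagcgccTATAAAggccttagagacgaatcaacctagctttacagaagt
Hist1h2ac (chr13:23683960-23684079, minus strand): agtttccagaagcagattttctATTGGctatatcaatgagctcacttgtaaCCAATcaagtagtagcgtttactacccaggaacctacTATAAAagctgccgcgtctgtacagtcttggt
Hist1h1b (chr13:21780626-21780745, minus strand): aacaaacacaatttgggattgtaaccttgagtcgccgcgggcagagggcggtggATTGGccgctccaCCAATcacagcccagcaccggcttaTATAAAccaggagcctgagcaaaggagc
Hist1h3g (chr13:23535298-23535417, plus strand): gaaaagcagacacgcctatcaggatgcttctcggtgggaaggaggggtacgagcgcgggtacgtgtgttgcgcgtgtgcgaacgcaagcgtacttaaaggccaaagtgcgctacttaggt
Hist4h4 (chr6:136804432-136804551, minus strand): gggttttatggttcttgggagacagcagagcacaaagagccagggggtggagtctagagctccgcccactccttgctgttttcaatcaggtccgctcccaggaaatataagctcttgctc
In the stretches printed, Hist1h3g and Hist4h4 held neither set of letters, and the TATAAA of the other 3 stood 28 to 42 bases before the start.

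Library depth was 21.7 to 36.1 M tags for Pol II, 13.5 to 55.4 M for H3K27ac and 25.6 to 45.3 M for input. H3K27ac depth averaged 36.4 M in KO and 19.8 M in WT. Each Pol II library correlated with the mean of the other libraries of its group at 0.989 to 0.994 over genes, and the H3K27ac libraries outside the KO 1 h and 18 h groups at 0.988 to 0.995. The library labelled KO 1 h H3K27ac replicate 1 correlated at 0.924 with its own group and at 0.981 with WT at 1 h. KO 18 h replicate 1 correlated at 0.931 with its own group. Counts of members that rest on these libraries are given with and without them, and tests of single genes and merged regions with them. KO 1 h replicates 2 and 3 correlated at 0.991 with each other and at 0.915 and 0.918 with WT at 1 h. Whether any of these libraries carries another sample's label was not tested, and KO H3K27ac values are those of the libraries as labelled. Per the file headers, the region lists of KO 1 h replicate 3 and KO 18 h replicate 1 counted up to 2 tags per base pair and the other H3K27ac lists up to 1, and the part of this setting was not tested. Pol II over Nr4a1 was 189, 188 and 208 tags in WT and 87.8, 76.1 and 70.2 in KO at 0 h (log2 difference -1.22 ± 0.17 SE, adjusted p = 1.20e-04), and 25.5, 23.0 and 30.4 against 33.5, 39.0 and 36.6 at 1 h, where all KO libraries lay above the WT libraries, against the direction of the label, and the difference did not pass (0.36 ± 0.17 SE, adjusted p = 0.0927). At 18 h WT gave 7.46, 5.98 and 0 tags and KO was listed at 0 in all 3 libraries (-0.49 ± 0.17 SE, adjusted p = 0.0459). Nr4a1 was thus tested at 18 h through WT alone, near the floor, and could only be lower in KO. All 8 macrophage markers carried Pol II, at a sum of 19964 to 22707 tags in WT and 22399.5 to 23054 in KO at 0 h, 27636 to 28528 and 18077 to 18834.5 at 1 h, and 41391 to 41990.1 and 35084 to 36384 at 18 h, so the KO libraries lay below WT without overlap after LPS. The part of this difference in the results was not tested. Markers of other cells were not all at 0. In the WT libraries at 0 h the B cell markers summed to 100.4 to 152 tags, the T cell markers to 83.3 to 97.0 (from 1 of 3 genes), the neutrophil markers to 15.4 to 16.6 (1 of 4, and 39.3 to 45.3 in KO) and the erythroid markers to 14.2 to 18.9 (1 of 3). Cd3e, Cd3g, Ly6g, Mpo, Elane, Gata1, Hbb-bt, Col1a1, Col1a2, Cpa3 and Ms4a2 were listed at 0 in all libraries, and the part of other cells in the results was not tested.

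In unstimulated WT BMDMs the histone genes carried Pol II in nearly every member, most densely in the Hist2 cluster. Values are normalized tags per 10 M in regions the authors called, and densities are those tags per kb of window. Of the 67 members 59 were above 0 in all 18 Pol II libraries, and 2, the testis genes Hist1h2ba and Hist1h2aa, were listed at 0 in all of them. Averaged over the 18 libraries, the 65 detected members ranged from 4.17 tags per kb at Hist3h2ba to 298 at Hist2h2ac, with a median of 124. In WT at 0 h alone, the 5 densest members belonged to Hist2, Hist2h2ab, Hist2h2ac and Hist2h2be at 409.8 tags per kb and Hist2h2bb and Hist2h3b at 389.5. They were followed by 5 genes of the third Hist1 segment that shared a region, Hist1h3d among them, at 352, and by Hist1h4d at 312, above Hist2h4 at 311. The members together held 163 ± 10.6 tags per kb in WT (SD, n = 3) and 171 ± 9.20 in KO, against 0.73 to 5.34 in the inputs.

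By class, Pol II density over the summed windows at 0 h in WT was 223 ± 14.7 tags per kb for the linker histone H1 genes, 205 ± 15.0 for H2A, 107 ± 5.11 for H2B, 240.0 ± 25.7 for H3 and 225 ± 16.1 for H4 (SD, n = 3). H2B was lowest, and its windows include long gene models such as Hist1h2be (37455 bp). The libraries of the other classes overlapped one another. By position, Hist2 carried 319.7 ± 17.8 tags per kb, the second Hist1 segment 237 ± 18.5, the third 139.6, 154 and 156 in its 3 libraries, the first 114 ± 11.4, Hist4h4 256 ± 14.6 and Hist3 90.1 ± 9.77.

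**Figure D1:**
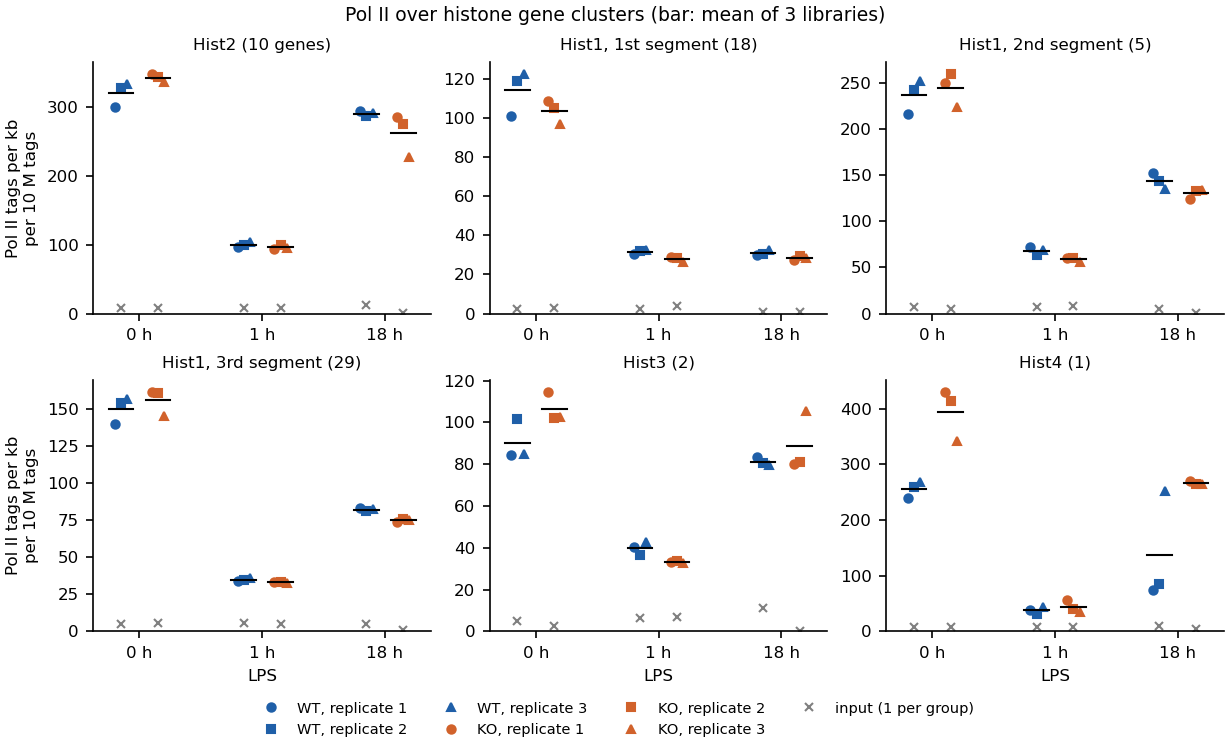
Pol II density (normalized tags per kb) in each library of WT and KO BMDMs at 0, 1 and 18 h of LPS, with 1 panel per histone cluster, a point per library, a bar at the group mean and crosses for the inputs. All panels fall at 1 h, and at 18 h the first Hist1 segment stays near its 1 h level (31.7 and 30.9 tags per kb in WT) while Hist2 returns to 289.7.

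One hour of LPS lowered Pol II over the histone genes of every class and cluster. Summed over the members, density fell from 163 ± 10.6 to 42.0 ± 1.27 tags per kb in WT, 25.7% of the 0 h value, and from 171 ± 9.20 to 39.6 ± 0.844 in KO, 23.2% (SD, n = 3). In WT all 65 tested members passed the test, each lower, where 86.9% of all genes tested passed, 68.3% lower and 18.6% higher (limma on log2(tags + 10), Benjamini-Hochberg adjusted p under 0.05). In KO 64 of 65 were lower, where 82.9% of all genes passed and 62.2% were lower, and Hist1h4c at -0.11 (adjusted p = 0.39) did not pass. Hist1h2br and Hist3h2ba were listed at 0 in all libraries of both genotypes at 1 h, so they were tested through 0 h alone and could only be lower. The same holds for Hist1h2br at 18 h and for the merged region of Hist3h2ba at 1 h. The members' median log2 change was -1.86 in WT and -1.95 in KO, beside -0.82 and -0.62 over all genes tested. After each library was centred on its median gene, 60 members were lower in WT with a median of -1.07, where 38.2% of all genes were then lower. Counted by merged region, all 22 regions over the members were lower in both genotypes, beside 82.6% and 80.9% of all merged regions passing in either direction.

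Among the linker histones, Hist1h1e and Hist1h1c, which code for somatic H1 proteins, were the densest. Tags over Hist1h1e in WT were 743, 973 and 1022 tags before LPS, 178, 174 and 136 after 1 h and 631, 644 and 604 after 18 h. KO libraries gave 1024, 1129 and 813 tags before LPS, 146, 137 and 155 after 1 h and 569, 573 and 546 after 18 h for the same gene. Hist1h1e therefore lost most of its Pol II at 1 h in all libraries and regained part of it by 18 h, with a log2 change after 1 h of -2.41 ± 0.13 (SE, adjusted p = 5.52e-12) in WT and -2.67 ± 0.13 (SE, adjusted p = 1.57e-12) in KO. Hist1h1c fell less, from 557, 603 and 600.5 to 236, 229 and 194 in WT (-1.38 ± 0.09 SE, adjusted p = 5.94e-11) and from 613, 601 and 659 to 224, 242 and 210.3 in KO (-1.43 ± 0.09 SE, adjusted p = 4.17e-11). By window, the largest WT decrease at 1 h was at Hist1h1t, known as the testis linker histone, with 397, 418 and 488 tags at 0 h and 31.9, 1.74 and 19.5 at 1 h (-4.18 ± 0.29 SE, adjusted p = 3.34e-10). At 0 h the region over Hist1h1t also overlapped Hist1h2bc in all libraries but WT replicate 3. At 18 h it did so in all libraries, and it was 18.0 to 19.0 kb long there and in KO replicate 3 at 0 h. The tags of Hist1h1t are therefore not its own alone. At 1 h no called region reached this gene in any library. The tags in its window came from the edge of a neighbouring region that began 1164 to 1399 bp past the gene start in WT and 1159 to 1248 bp in KO, where the window ended at 1412 bp. Over the merged region of Hist1h2ac, Hist1h2bc, Hist1h1t and Hist1h4c the WT change was -2.35.

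The core histone genes fell by differing amounts at 1 h. Hist2h2be, an H2B gene with the most Pol II in Hist2, gave 1481, 1543 and 1426 tags before LPS, 278, 319 and 331 after 1 h and 1262, 1189.9 and 1235 after 18 h in WT. Its KO libraries gave 1569, 1495 and 1359 tags before LPS, 237, 268 and 261 after 1 h and 1371, 1469 and 907 after 18 h. After 1 h the change was -2.23 ± 0.13 (SE, adjusted p = 1.88e-11) in WT and -2.48 ± 0.13 (SE, adjusted p = 4.89e-12) in KO, and at 18 h neither genotype passed the test (-0.27 and -0.27). The H2A genes Hist2h2ac and Hist2h2ab shared a region and had equal densities in every library. Hist2h2ac fell from 622, 648 and 599 to 205, 224 and 256 tags in WT (-1.41 ± 0.13 SE, adjusted p = 1.40e-08). Hist2h2bb and Hist2h3b, an H2B and an H3 gene, moved as neighbours: Hist2h3b gave 453, 511 and 774 tags before LPS, 137, 145 and 128 after 1 h and 579.8, 562 and 572 after 18 h in WT, and 567, 579 and 774 tags before LPS, 157, 166 and 145 after 1 h and 586, 441 and 458 after 18 h in KO.

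Hist1h3d, the densest H3 gene of Hist1, fell from 719.7, 827 and 827 to 132, 142 and 143 tags in WT (-2.42 ± 0.08 SE, adjusted p = 3.32e-15) and from 864, 879 and 799 to 100.3, 110.5 and 110.1 in KO (-2.87 ± 0.08 SE, adjusted p = 3.44e-16). The H4 gene Hist1h4d fell less, from 635, 666 and 701 to 229, 269 and 243 in WT (-1.40 ± 0.07 SE, adjusted p = 5.70e-12). By class the median member change in WT was -2.38 for H1, -2.11 for H2B, -1.86 for H2A, -1.78 for H3 and -1.63 for H4, and these medians were not tested against each other. Hist1h2ao, an H2A gene whose sequence is fully shared with another copy, had the largest KO decrease by window, from 297, 232 and 269 to 0, 5.73 and 6.03 tags (-4.34 ± 0.71 SE, adjusted p = 2.25e-05), beside -2.23 over its merged region.

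**Figure D2:**
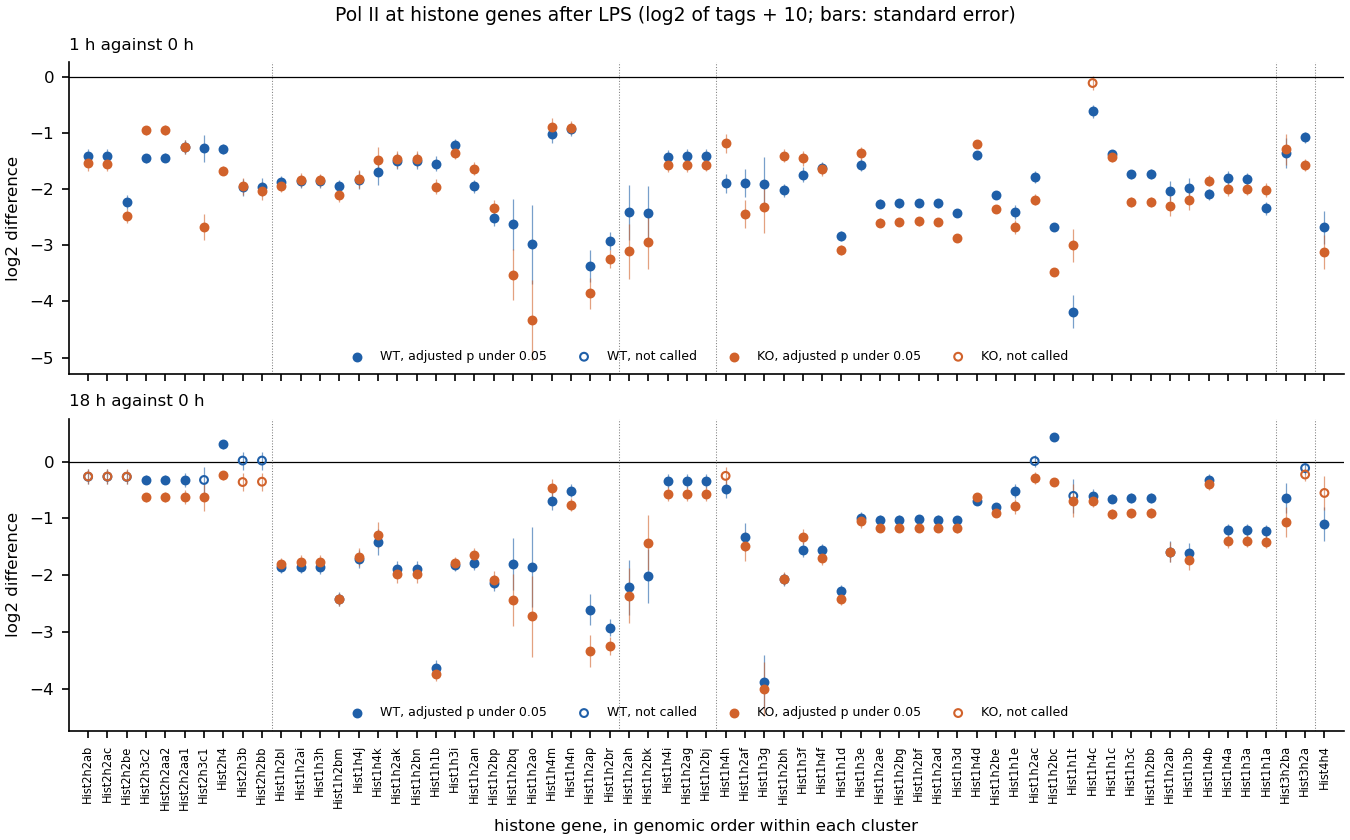
Log2 change in Pol II of each tested histone gene after 1 h and 18 h of LPS against 0 h in WT and KO BMDMs, in genomic order within each cluster, with filled points for genes that passed the test and bars for the standard error. At 1 h all points lie below 0, and at 18 h the first Hist1 segment centres near -1.86 in WT while Hist2 centres near -0.27.

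By 18 h of LPS the clusters had parted. In WT, Hist2 held 90.6% of its 0 h Pol II density and Hist3 90.1%, the second Hist1 segment 60.8%, the third 54.7% and the first 27.02%. In KO the same clusters held 76.8%, 83.6%, 53.3%, 48.2% and 27.3%. Summed over the first Hist1 segment, 1 h and 18 h gave 31.7 ± 1.10 and 30.9 ± 1.37 tags per kb in WT and 27.8 ± 1.40 and 28.4 ± 1.05 in KO, differences smaller than the SD of either time. Of the 65 members tested, 54 were lower and 2 higher in WT, where 66.5% of all genes passed, 33.3% lower and 33.2% higher. In KO 57 were lower and 0 higher, where 70.2% of all genes passed and 42.1% were lower. The members' medians were -1.02 and -1.17, beside 0.00 and -0.18 over all genes. By merged region, 18 of 22 were lower and 2 higher in WT (67.3% of all merged regions passed), and 21 were lower and 0 higher in KO (72.7% passed).

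All 18 genes of the first Hist1 segment were lower at 18 h in both genotypes, with median log2 changes of -1.86 in WT and -1.90 in KO. In the third segment 26 of 29 were lower in WT and 28 in KO, with medians of -1.02 and -1.17. In Hist2, 3 of 10 were lower and 1 higher in WT and 5 were lower in KO, with medians of -0.27 and -0.36. Hist3h2a, the H2A gene and the denser of the Hist3 pair, gave 381, 472 and 387 tags before LPS, 192, 174 and 203 after 1 h and 384, 373 and 379.6 after 18 h in WT. Its 18 h libraries lay near or below the lowest at 0 h and did not pass (-0.11 ± 0.11 SE, adjusted p = 0.354). Over its merged region, which holds no other member, WT libraries gave 1796, 2058 and 2025 tags before LPS and 2414, 2427 and 2470.4 after 18 h, higher without overlap (0.32 ± 0.05 SE, adjusted p = 9.59e-05), so the window and the merged region differed in sign. In KO the window gave 522, 478 and 474 tags before LPS, 159, 159.6 and 155 after 1 h and 376, 385 and 503 after 18 h, and the merged region did not pass at 18 h (0.08).

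The ratio of Hist2 to Hist1 density was formed within each library, which removes any scale common to both. In the WT libraries its log2 was 1.18, 1.14 and 1.14 before LPS, 1.48, 1.52 and 1.51 after 1 h and 2.00, 1.99 and 2.00 after 18 h. KO libraries gave 1.20, 1.18 and 1.30, then 1.498, 1.59 and 1.57, then 2.13, 2.03 and 1.78. No library of a later time overlapped a 0 h library of its genotype. The log2 ratio exceeded that at 0 h by 0.35 (WT) and 0.33 (KO) after 1 h of LPS and by 0.85 and 0.75 after 18 h. The ratio was chosen after the values had been seen and is given as a description, with no test. In these bulk samples, fewer cells with Pol II on a cluster and less Pol II per cell cannot be told apart.

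Within the first segment the windows of the genes did not share 1 course. Hist1h2ak and Hist1h2bp, an H2A and an H2B gene, stayed low. Hist1h2ak in WT gave 209.8, 349 and 259.7 tags before LPS, 87.9, 83.9 and 92.5 after 1 h and 61.1, 59.9 and 72.1 after 18 h and in KO 175, 218 and 233 tags before LPS, 71.9, 69.7 and 64.2 after 1 h and 45.9, 47.0 and 41.5 after 18 h. For Hist1h2bp the WT libraries gave 328, 389.9 and 262 tags before LPS, 44.2, 46.7 and 54.9 after 1 h and 67.8, 62.9 and 64.8 after 18 h, and the KO libraries 239, 224 and 212 tags before LPS, 43.3, 28.5 and 38.8 after 1 h and 41.1, 49.3 and 46.6 after 18 h. By window, Hist1h2ak was lower at 18 h than at 1 h in every library of both genotypes. Hist1h2bp at 18 h lay above its 1 h values in WT and overlapped them in KO, and stayed far below 0 h in both. Over the merged region of Hist1h1b, Hist1h3i, Hist1h2an and Hist1h2bp, Pol II was lower at 18 h than at 1 h in both genotypes. It held 404 ± 5.81 and then 210 ± 9.09 tags in WT, and 292 ± 14.7 and 169 ± 7.65 in KO (SD, n = 3). The merged region of Hist1h4k, Hist1h2ak and Hist1h2bn held 297 ± 25.2 and 281 ± 3.53 in WT, with overlap, and 224 ± 4.12 and 206 ± 5.32 in KO. Hist1h3i, an H3 gene of the same segment, fell from 227, 252 and 289.6 at 0 h to 97.5, 112 and 105 at 1 h and 67.0, 67.7 and 61.1 at 18 h in WT (-1.82 ± 0.11 SE, adjusted p = 6.69e-11). The linker histone gene Hist1h1b gave 279.9, 312 and 358 tags before LPS, 99.5, 112 and 93.1 after 1 h and 18.5, 15.5 and 14.6 after 18 h in WT (-3.64 ± 0.13 SE, adjusted p = 4.59e-14 at 18 h).

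The 2 merged regions at the end of the segment held more Pol II at 18 h than at 1 h. The region of Hist1h2bq, Hist1h2ao and Hist1h4m held 141 ± 8.53 tags at 1 h and 307 ± 14.1 at 18 h in WT, and 151 ± 11.2 and 335 ± 29.2 in KO (SD, n = 3). The region of Hist1h4n, Hist1h2ap and Hist1h2br held 130.4 ± 4.17 and 349 ± 4.41 in WT, and 152 ± 10.7 and 372 ± 19.6 in KO. Both stayed below 0 h (-1.11 and -0.85 at 18 h in WT), and 4 of these 6 genes are the Hist1 copies whose whole sequence is shared. The change from 1 h to 18 h was not tested.

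By window, the largest decrease at 18 h was at Hist1h3g, the H3 gene of the third segment whose stem-loop carries the TCTT loop shown above. Its WT libraries gave 260.4, 300.1 and 317 tags before LPS, 70.9, 64.4 and 77.3 after 1 h and 0, 61.7 and 1.82 after 18 h, and its KO libraries 265, 254 and 258 tags before LPS, 73.8, 31.7 and 35.7 after 1 h and 5.39, 7.26 and 7.46 after 18 h. All but 1 of the 18 h libraries were below 8 tags, WT replicate 2 being near its 1 h level, and the log2 change was -3.89 ± 0.48 (SE, adjusted p = 1.27e-06) in WT and -4.01 ± 0.48 (SE, adjusted p = 7.68e-07) in KO. Over the merged region of Hist1h4h, Hist1h2af and Hist1h3g it was -1.51 in WT and -1.41 in KO, and by merged region the largest decrease was that of Hist1h1b, Hist1h3i, Hist1h2an and Hist1h2bp in the first segment (-3.15 and -3.08).

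Hist2h4 and Hist1h2bc were the 2 members higher at 18 h in WT by window. Hist2h4, the H4 gene of Hist2, gave 802, 903 and 752 tags before LPS, 319, 327 and 342 after 1 h and 1025, 994 and 1011 after 18 h in WT (0.30 ± 0.08 SE, adjusted p = 0.00322) and 1002, 1023 and 900.4 tags before LPS, 318, 309 and 271 after 1 h and 877, 779 and 809 after 18 h in KO (-0.24 ± 0.08 SE, adjusted p = 0.0129). The H2B gene Hist1h2bc gave 1049, 1143 and 979 tags before LPS, 142, 160.2 and 171 after 1 h and 1428, 1408 and 1449 after 18 h in WT (0.43 ± 0.07 SE, adjusted p = 6.13e-05) and 1624, 1566 and 1695 tags before LPS, 138, 145 and 130.4 after 1 h and 1219, 1286 and 1293 after 18 h in KO (-0.36 ± 0.07 SE, adjusted p = 3.56e-04). Its neighbour Hist1h2ac, an H2A gene, gave 409, 496 and 542 tags before LPS, 129, 117 and 153 after 1 h and 488, 505 and 454 after 18 h in WT and did not pass at 18 h (0.01 ± 0.11 SE, adjusted p = 0.943). Hist2h4 and Hist1h2bc thus ended above 0 h in WT and below it in KO. The Hist1h2bc increase reversed to -0.13 within 500 bp of the start and to -0.030 over the merged region. In the WT libraries at 18 h a single region of 18.3 to 19.0 kb ran from Hist1h2bc to Hist1h1t, where at 0 h the regions were shorter, 5.77 to 8.97 kb.

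Without LPS, few histone genes differed between KO and WT. At 0 h, 1 of 65 members was higher and 2 were lower, where 6.89% of all genes tested passed and 2.71% were lower, and the members' median of 0.05 lay beside 0.04 over all genes. Hist1h2bc was higher in KO (1049, 1143 and 979 tags in WT and 1624, 1566 and 1695 in KO, 0.62 ± 0.07 SE, adjusted p = 3.01e-05), with a difference of 0.033 within 500 bp of its start. The lower pair, Hist1h2bp (-0.50 ± 0.14 SE, adjusted p = 0.042) and Hist1h2an (-0.47 ± 0.11 SE, adjusted p = 0.0171), lay in the first Hist1 segment. By merged region 3 of 22 were higher and 4 lower, where 14.5% of all merged regions passed. With replicate 1, 2 or 3 of every group left out, 1 to 4 members passed. The share of all genes is not given for such ranges, here or below, so they show only how the member counts moved.

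At 1 h of LPS, 6 of 63 members were higher in KO and 16 lower, where 45.6% of all genes tested passed, 38.1% higher and 7.53% lower. The members' median was -0.17 beside 0.24 over all genes, and with each library centred on its median gene 3 were higher and 38 lower, where 15.8% of all genes were then higher and 21.2% lower. Hist1h3d was lower, 132, 142 and 143 tags in WT and 100.3, 110.5 and 110.1 in KO (-0.35 ± 0.08 SE, adjusted p = 0.00159), as were Hist1h3c (-0.41 ± 0.09 SE, adjusted p = 0.00136) and Hist1h1b (-0.58 ± 0.13 SE, adjusted p = 0.00174), a linker histone gene. Hist1h4h (0.55 ± 0.16 SE, adjusted p = 0.0118) and Hist1h4c (0.42 ± 0.12 SE, adjusted p = 0.00767), both H4 genes, were higher, as was Hist1h1t (1.10 ± 0.29 SE, adjusted p = 0.00549). The Hist1h1t value came from the edge of the neighbouring region described above. Over the merged region that holds Hist1h1t and Hist1h4c the difference was 0.16 ± 0.06 (SE, adjusted p = 0.0424). Hist1h4h gave 68.1, 61.8 and 74.3 in WT and 70.9, 122 and 129 in KO, where 1 of 3 KO libraries lay within the WT range, and its sign turned to -0.28 when regions were counted whole and to -0.046 over the merged region. With replicate 1, 2 or 3 of every group left out, 6 to 13 members passed in place of 22.

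Hist2h3c1, an H3 gene, had the largest KO decrease at 1 h, with 273, 275 and 266 tags in WT and 65.3, 90.1 and 212 in KO (-1.25 ± 0.23 SE, adjusted p = 4.18e-04). The region over this gene was 5.41 to 6.76 kb long in the WT libraries, 1.60 and 1.54 kb in KO replicates 1 and 2 and 5.596 kb in KO replicate 3. Over the merged region, which sums all regions called in that stretch, the difference was 0.028 and did not pass. Its neighbours Hist2h3c2 (0.65 ± 0.08 SE, adjusted p = 9.19e-06) and Hist2h2aa2 (0.64 ± 0.08 SE, adjusted p = 1.51e-05) were higher by window and lie in the same merged region. By merged region, 3 of 21 were higher and 8 lower, where 51.2% of all merged regions passed.

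At 18 h, 1 of 64 members was higher in KO and 5 were lower, where 20.9% of all genes tested passed, 7.55% higher and 13.4% lower, with medians of -0.15 for the members and -0.10 for all genes. The lower members were Hist1h2ak (-0.44 ± 0.15 SE, adjusted p = 0.0435), Hist1h2bn (-0.44 ± 0.15 SE, adjusted p = 0.0438) and Hist1h2bp (-0.44 ± 0.14 SE, adjusted p = 0.0385) of the first Hist1 segment, Hist1h2bh (-0.37 ± 0.11 SE, adjusted p = 0.0272) of the third, and Hist2h4 (-0.30 ± 0.08 SE, adjusted p = 0.015). KO libraries of Hist1h2ak gave 45.9, 47.0 and 41.5 tags, below the WT values of 61.1, 59.9 and 72.1 without overlap. With replicate 1, 2 or 3 of every group left out, 0 or 1 members passed in place of 6, and with each library centred on its median gene 2 were higher and 0 lower, where 15.2% and 7.77% of all genes were.

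By merged region 0 of 22 were higher in KO at 18 h and 8 lower, where 29.6% of all merged regions passed. Both regions of Hist2 were among the lower ones. The region from Hist2h2ab to Hist2h3c1, with 7 genes (chr3:96215010-96253624), held 8074, 8040.1 and 8129.7 tags in WT and 6193, 6242 and 5987 in KO. Its KO libraries lay below the WT libraries without overlap, by a log2 difference of -0.40 ± 0.06 (SE, adjusted p = 5.77e-05), while none of the 7 genes passed in its own window. The region of Hist2h4, Hist2h3b and Hist2h2bb (chr3:96260314-96270910) held 3941, 3834 and 3895 tags in WT and 2971, 3003 and 3012 in KO, again without overlap (-0.38 ± 0.06 SE, adjusted p = 3.38e-04). Over the latter region LPS at 18 h raised Pol II in WT (0.22 ± 0.06 SE, adjusted p = 0.00659) and lowered it in KO (-0.31 ± 0.06 SE, adjusted p = 4.14e-04), and over the former it lowered it in both (-0.36 and -0.81).

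**Figure D3:**
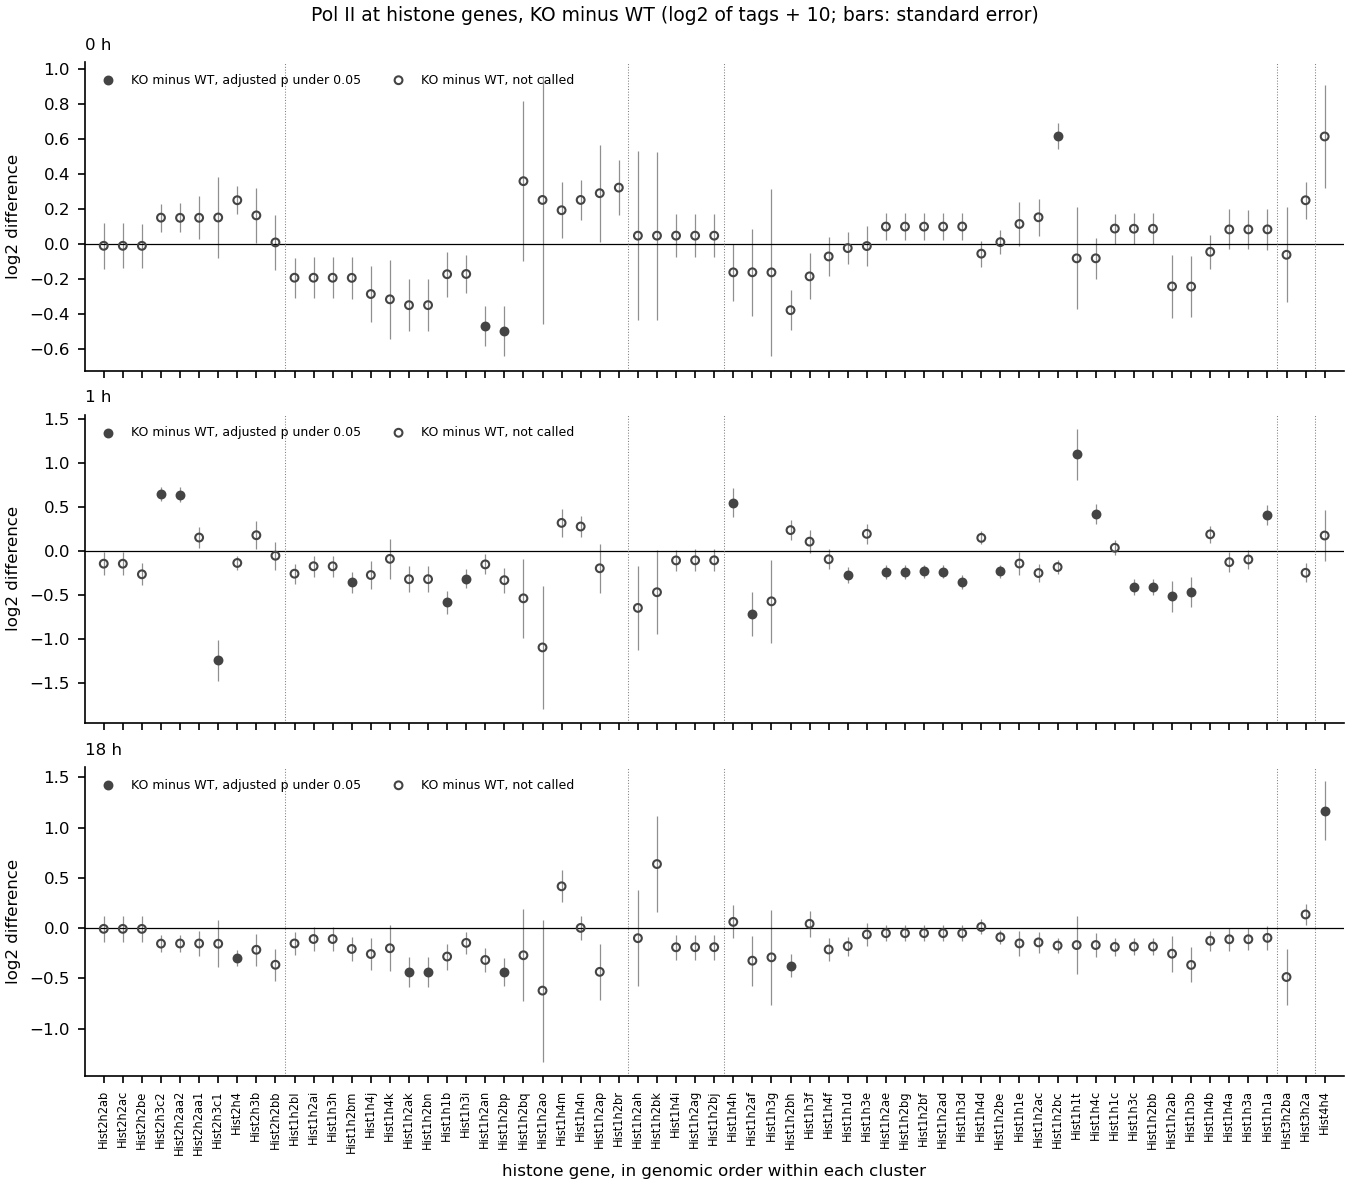
Log2 difference in Pol II between KO and WT for each tested histone gene at 0, 1 and 18 h of LPS, in genomic order within each cluster, with filled points for genes that passed the test and bars for the standard error. Most points lie within 0.5 of 0 at 0 h, and the points farthest from 0 at 1 h are Hist2h3c1 (-1.25), Hist1h1t (1.10) and Hist1h2ao (-1.10, adjusted p = 0.209 by limma, not passing) and at 18 h Hist4h4 (1.17).

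The LPS response itself was compared between genotypes as an interaction term. At 1 h it passed for 16 of 65 members, 5 with a higher and 11 with a lower change in KO, where 18.4% of all genes tested passed, 14.2% higher and 4.22% lower, and with centred libraries 1 had a higher and 18 a lower change, where 6.70% and 13.0% of all genes did. Only 1 to 9 members passed with replicate 1, 2 or 3 of every group left out. Hist1h2bc (-0.80 ± 0.11 SE, adjusted p = 7.12e-05), Hist3h2a (-0.50 ± 0.15 SE, adjusted p = 0.0289) and Hist1h3d (-0.45 ± 0.11 SE, adjusted p = 0.00777) fell further in KO, and Hist1h4h (0.71 ± 0.23 SE, adjusted p = 0.0429) fell less. For Hist1h4h the direction turned (-0.069) and the term did not pass when regions were counted whole. At 18 h it passed for 2 of 65, Hist1h2bc (-0.79 ± 0.11 SE, adjusted p = 6.61e-05) and Hist2h4 (-0.55 ± 0.11 SE, adjusted p = 0.00354), both lower, where 14.8% of all genes passed. By merged region the 1 h term passed for 4 of 22, 1 higher and 3 lower, where 14.4% of all merged regions passed. The region with Hist1h3d was among the 4 (-0.42 ± 0.08 SE, adjusted p = 0.00149). It did not pass for those of Hist1h2bc (-0.10 ± 0.09 SE, adjusted p = 0.472), Hist3h2a (-0.20 ± 0.08 SE, adjusted p = 0.0934) and Hist1h4h (0.17 ± 0.10 SE, adjusted p = 0.249). Over merged regions the 18 h differences were -0.44 for Hist1h2bc and -0.53 for Hist2h4, and both still passed.

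Hist4h4, the H4 gene that stands alone on chromosome 6, was the 1 member whose window held more Pol II in KO at 18 h by the test. Its window gave 925, 1002 and 1036 tags before LPS, 147, 123 and 169 after 1 h and 287, 331 and 974 after 18 h in WT and 1661, 1595 and 1317 tags before LPS, 215, 154 and 136 after 1 h and 1046, 1022 and 1024 after 18 h in KO. WT replicates 1 and 2 at 18 h lay far below WT replicate 3, which was within the WT range at 0 h and close to the KO values. In the window KO exceeded WT by 0.62 ± 0.29 (SE, adjusted p = 0.261) before LPS, 0.18 ± 0.29 (SE, adjusted p = 0.638) after 1 h and 1.17 ± 0.29 (SE, adjusted p = 0.00849) after 18 h, of which the 18 h value passed.

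The extents of the called regions at Hist4h4 differed between these libraries. In WT at 18 h the region was 27.7 and 28.2 kb long in replicates 1 and 2, at 101 and 98.1 tags per kb, and 4.38 kb in replicate 3, at 328 tags per kb. All 3 KO libraries had regions of 3.60 to 3.68 kb at 438 to 458 tags per kb. Summed over the merged region (chr6:136800920-136837566), the 18 h values were 2972, 2946 and 2906 in WT and 2834, 2765 and 2736 in KO, a difference of -0.082 that did not pass (adjusted p = 0.322), so the window and the whole stretch gave opposite signs at 18 h. At 0 h the merged region held 2664, 2930.1 and 2957 tags in WT and 4157, 4118 and 3513 in KO, without overlap, and the difference of 0.46 ± 0.06 passed (adjusted p = 6.93e-05), as did 0.58 ± 0.06 at 1 h (adjusted p = 1.29e-06). The merged region was added as a unit after the data had been seen, and it reaches well beyond the gene.

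**Figure D4:**
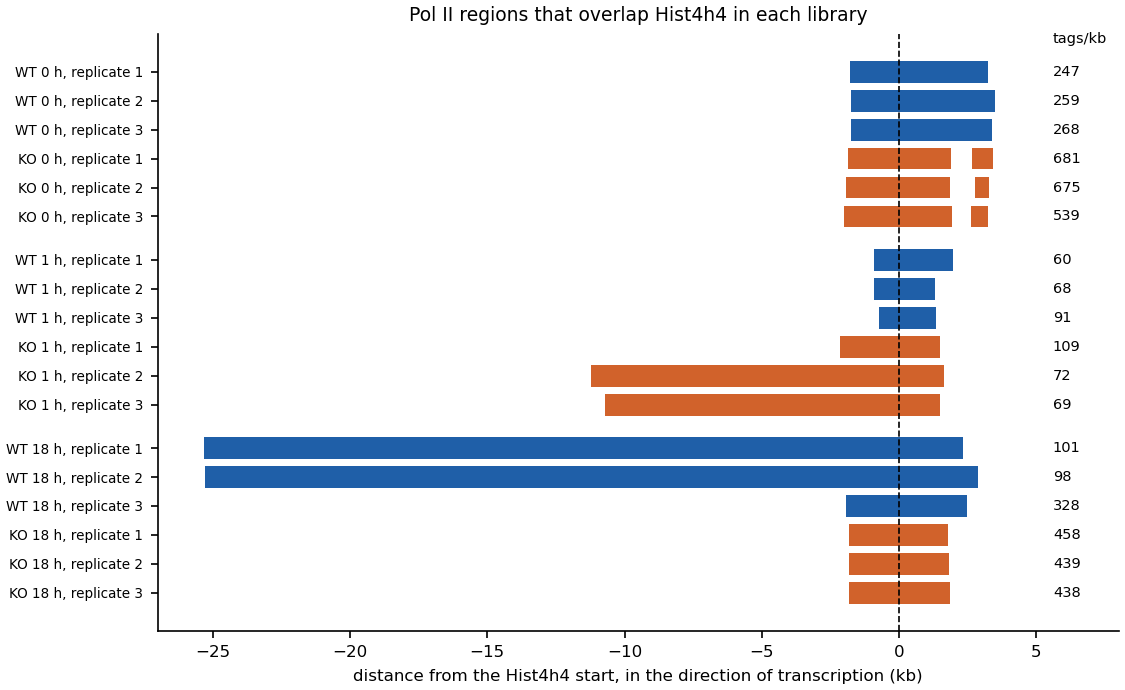
Called Pol II regions around Hist4h4 in each library, drawn as bars by distance from the gene start (kb), coloured by genotype, with normalized tags per kb of the region at the gene start printed at the right. WT replicates 1 and 2 at 18 h show single regions of 27.7 and 28.2 kb, where the KO libraries at 18 h show regions of 3.60 to 3.68 kb over the gene.

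H3K27ac, which marks promoters and enhancers in use, was measured within 2500 bp of each gene start. Of the 67 members, 64 were above 0 in all 18 libraries and 2 were listed at 0 in all. At 1 h of LPS in WT 55 of 64 members were lower and 0 higher, where 54.5% of all genes tested passed, 29.2% lower and 25.2% higher, with a median of -1.22 beside -0.05 over all genes. H3K27ac over the members fell from 77.9 ± 1.39 to 39.8 ± 0.803 tags per kb (SD, n = 3) and stood at 58.2 ± 1.01 at 18 h. All 29 members of the third Hist1 segment and 17 of 18 of the first were lower at 1 h, and 4 of 10 in Hist2. By merged region 22 of 25 were lower, where 67.3% of all merged regions passed, and the regions with 9 of the 10 Hist2 genes were among the lower ones.

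Hist1h4b, an H4 gene, had the largest WT decrease, with 434, 458 and 377 tags before LPS, 37.4, 39.6 and 48.1 after 1 h and 86.5, 99.4 and 102 after 18 h (-3.07 ± 0.45 SE, adjusted p = 2.93e-05 at 1 h). Hist2h2ac gave 1026, 1041 and 1192 tags before LPS, 1037, 917 and 993 after 1 h and 1112, 1036 and 1063 after 18 h in WT and did not pass at 1 h in its window (-0.14 ± 0.14 SE, adjusted p = 0.402). The merged region of Hist2h2ab, Hist2h2ac and Hist2h2be, in contrast, fell from 2672 ± 81.0 to 1426 ± 20.4 tags (-0.90 ± 0.11 SE, adjusted p = 4.94e-06). Of the other Hist2 regions, the one with Hist2h3c2 fell from 2335 ± 49.5 to 1341 ± 20.2 and the one with Hist2h3b from 655 ± 17.8 to 208 ± 9.45, while Hist2h4 did not pass (-0.07). At 18 h 30 of 64 members were lower and 1 higher in WT, where 49.9% of all genes passed, 26.4% lower and 23.5% higher, with medians of -1.72 in the first Hist1 segment, -0.58 in the third and 0.14 in Hist2. Hist1h3i fell most, from 376, 361 and 371 to 47.2, 79.8 and 64.7 (-2.38 ± 0.45 SE, adjusted p = 3.95e-04), and Hist3h2a was the one member higher, 418, 445 and 439 at 0 h and 562, 559 and 594 at 18 h (0.39 ± 0.10 SE, adjusted p = 0.00496).

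In KO 23 of 65 members were lower and 0 higher in H3K27ac at 1 h, where 46.9% of all genes passed, 26.6% lower and 20.3% higher. At 18 h 27 were lower and 3 higher, where 52.6% of all genes passed, 34.2% lower and 18.4% higher. Hist3h2ba, with 0, 6.88 and 5.28 tags in KO at 0 h and none in any other library, was among the lower members at both times and could only be lower. The 3 higher members were Hist3h2a, Hist2h2ac and Hist2h2be. For Hist2h2ac and Hist2h2be the direction turned over their shared merged region (-0.46 ± 0.11 SE, adjusted p = 0.00221) and with regions counted whole (-0.91, adjusted p = 2.36e-05), both lower at 18 h. The KO libraries of a group did not lie together. In the first Hist1 segment, KO replicates 1, 2 and 3 held 11.6, 35.8 and 34.9 tags per kb after 1 h of LPS, beside 14.1, 13.7 and 13.8 for WT. After 18 h the KO replicates held 30.1, 9.58 and 8.64, beside 11.2, 11.8 and 11.6 for WT. Replicate 1 thus stood apart from the other two at both times, below the WT libraries at 1 h and far above them at 18 h. Without KO 1 h replicate 1 the KO count at 1 h was 14, where 49.4% of all genes passed, and without KO 18 h replicate 1 the count at 18 h was 37, where 57.8% did. Leaving out replicate 1, 2 or 3 of every group gave 11 to 25 at 1 h and 11 to 55 at 18 h.

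**Figure D5:**
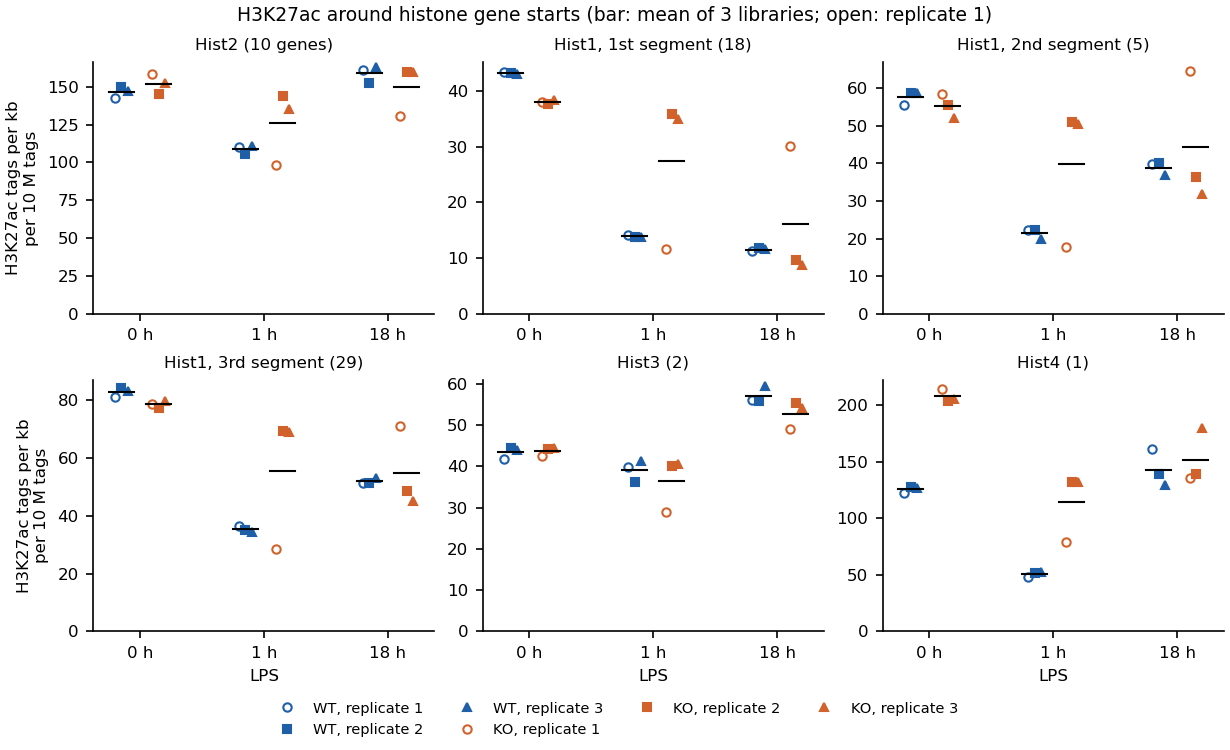
H3K27ac density (normalized tags per kb) in each library of WT and KO BMDMs at 0, 1 and 18 h of LPS, with 1 panel per histone cluster, a point per library, open symbols for replicate 1 and a bar at the group mean. KO replicate 1 lies below WT at 1 h in the first Hist1 segment (11.6 tags per kb) while replicates 2 and 3 lie at 35.8 and 34.9, and at 18 h KO replicate 1 lies at 30.1 against 9.58 and 8.64.

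The ratio of Hist2 to Hist1 density, summed over the same windows, was also formed for H3K27ac. WT libraries gave a log2 ratio of 1.15, 1.18 and 1.16 before LPS, 2.03, 2.02 and 2.12 after 1 h and 2.16, 2.08 and 2.15 after 18 h. KO libraries gave 1.37, 1.27 and 1.31 before LPS, 2.21, 1.39 and 1.32 after 1 h and 1.25, 2.25 and 2.37 after 18 h. All WT libraries after LPS lay above those at 0 h, while in KO replicates 2 and 3 at 1 h and replicate 1 at 18 h lay close to the 0 h values. The mean log2 ratio exceeded that at 0 h by 0.89 (WT) and 0.33 (KO) after 1 h of LPS and by 0.97 and 0.64 after 18 h, again with no test.

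KO against WT in H3K27ac rested on the same libraries. At 0 h 1 of 65 members was higher in KO and 0 lower, where 0.770% of all genes tested passed: Hist4h4, with 615, 640.1 and 636 in WT and 1071, 1019.9 and 1031 in KO (0.71 ± 0.16 SE, adjusted p = 0.0424). It did not pass with centred libraries, narrower windows, whole regions or a replicate block, and with whole regions its direction turned (-0.20). At 1 h 10 of 64 were higher and 0 lower, where 18.2% of all genes passed and 11.0% were higher, with a median of 0.63 beside 0.05 over all genes. KO replicate 1 lay below every WT library in 52 of the 65 detected members, while replicate 2 lay above every WT library in 61 and replicate 3 in 57. Leaving out KO 1 h replicate 1 raised the count to 52, all higher, where 45.7% of all genes then passed and 27.3% were higher, and leaving out replicate 2 or 3 of every group brought it to 0.

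Hist1h4b shows the split, with 37.4, 39.6 and 48.1 in WT and 38.6, 271 and 283 in KO at 1 h (1.62 ± 0.44 SE, adjusted p = 0.0234). Hist4h4 gave 242, 259 and 264 in WT and 396, 660.2 and 662 in KO (1.10 ± 0.16 SE, adjusted p = 6.87e-04), all 3 KO libraries above the WT range. Over its merged region Hist4h4 H3K27ac was higher in KO by 0.46 ± 0.11 at 0 h (adjusted p = 0.0228) and by 0.92 ± 0.11 at 1 h (adjusted p = 5.66e-05). Hist2h2bb (0.52 ± 0.15 SE, adjusted p = 0.0297) and Hist2h3b (0.60 ± 0.17 SE, adjusted p = 0.0252) of Hist2 were also higher. At 18 h Hist2h3c1 was lower, 694, 684 and 753 in WT and 365, 390.2 and 392 in KO (-0.88 ± 0.17 SE, adjusted p = 0.00747), the only one of 64 members to pass, where 3.20% of all genes did, 2.25% lower and 0.951% higher. Over the merged region that holds Hist2h3c1 the difference was -0.23 and did not pass (adjusted p = 0.186).

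The interaction in H3K27ac passed for 0 of 65 members at 1 h and at 18 h, where 0.535% and 0.605% of all genes tested passed by limma. At an unadjusted p under 0.05, 9 members passed at 1 h and 3 at 18 h, where 20.5% and 13.0% of all genes did. Without KO 1 h replicate 1, 46 members passed at 1 h, all with a higher term, where 29.9% of all genes passed and 15.7% were higher.

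The machinery that makes and processes histone transcripts was followed as a list of 16 genes. In Pol II, 2 were higher and 10 lower at 1 h in WT, and 5 higher and 9 lower in KO, where 86.9% and 82.9% of all genes passed. At 18 h these counts were 3 and 6 in WT and 5 and 7 in KO, where 66.5% and 70.2% of all genes passed. Slbp, the stem-loop binding protein, gave 394, 457 and 456 tags before LPS, 72.4, 54.0 and 64.1 after 1 h and 421, 403 and 399 after 18 h in WT and 275, 274 and 315 tags before LPS, 75.7, 95.8 and 76.3 after 1 h and 339, 386 and 319 after 18 h in KO. Slbp was lower in KO at 0 h (-0.58 ± 0.11 SE, adjusted p = 0.00344) and fell less at 1 h there (interaction 0.91 ± 0.16 SE, adjusted p = 9.18e-04). Npat, the histone coactivator, was higher at 1 h in WT, 61.2, 121 and 75.6 at 0 h and 113, 116 and 124 at 1 h (0.46 ± 0.18 SE, adjusted p = 0.0271), with 1 library at 0 h within the 1 h range, and in KO (0.53 ± 0.18 SE, adjusted p = 0.0131). Lsm11, a subunit of the U7 particle that trims histone transcripts, was lower at 18 h in WT (-1.83 ± 0.18 SE, adjusted p = 6.53e-08) and in KO (-1.84 ± 0.18 SE, adjusted p = 5.50e-08). Casp8ap2, another protein of the histone locus body, was lower at 1 h in WT (-1.65 ± 0.14 SE, adjusted p = 3.71e-09) and did not pass at 18 h (0.07).

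Replication-independent histone genes, 10 of 11 tested, were 1 higher and 8 lower in WT at 1 h (86.9% of all genes passed, 68.3% lower) and 3 higher and 4 lower at 18 h (66.5% passed). These shares are near those of all genes. H3f3b, which codes for the H3 variant laid down outside S phase, fell from 2557, 2719 and 2796 to 2011, 1953 and 1963 at 1 h (-0.44 ± 0.06 SE, adjusted p = 1.60e-06) and reached 3769, 4110.3 and 4371 at 18 h (0.60 ± 0.06 SE, adjusted p = 6.90e-08). Of 10 histone chaperones 8 were lower and 1, Daxx, higher at 1 h in both genotypes. Of all genes 86.9% passed in WT and 82.9% in KO at 1 h, 68.3% and 62.2% lower. At 18 h 4 chaperones were higher and 3 lower in WT and 3 and 3 in KO, where 66.5% and 70.2% of all genes passed. Among 17 S phase and cell cycle genes 16 were lower and 1, Mki67, higher at 1 h in each genotype, where 68.3% of all genes were lower in WT and 62.2% in KO. At 18 h 15 were lower and 1, Mcm5, higher in each, where 33.3% and 42.1% of all genes were lower. At 0 h 7 of these 17 were lower in KO, among them Mcm4, Mcm5 and Top2a, where 2.71% of all genes were.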

How the data were processed

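Pol II and H3K27ac ChIP-seq libraries and inputs from WT and KO BMDMs were analysed as deposited, 1 region list per library. Per the labels and the study's methods, the authors trimmed reads, aligned them to mm10 with HISAT2 2.1.0, removed duplicates and called broad regions with HOMER, replicates not pooled. Per the file headers the window was 500 bp, regions were stitched within 1000 bp at a Poisson p of 0.001, at most 1 tag was considered per base pair (2 in 4 lists, of which 2 were KO inputs and 2 the KO H3K27ac lists named in the report), and the deposited signal is a tag count normalized to 10 M tags. A value of 0 means that no region was called, so a low signal can be listed at 0.

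A gene's Pol II signal was the sum of region tags over the gene body and 500 bp on each side, and its H3K27ac signal over 2500 bp on each side of the start, a region shared out by its overlap. Since a region's tags are spread evenly over its length, a value moves with where the region ends. Genes above 0 in at least 2 of 3 libraries of a compared group were tested on log2(tags + 10) with limma 3.58.1 (R 4.3.3; 6 group means, trended variance), Benjamini-Hochberg adjusted over all protein-coding genes tested and called under 0.05, with no replicate block. Fold changes on this scale understate the change of low genes. The fit was tested on simulated data. Sums of regions were also compared by merged region, added after the data had been seen. Alternatives were a pseudocount of 1, no filter on low values, narrower windows (500 bp for Pol II and 1000 bp for H3K27ac on each side of the start), whole regions, median centring, a replicate block and leaving out libraries. Depth is given in the report. Precision is given by the spread over 3 libraries, and no counting interval was computed, since the files give normalized tags and not counts.

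Named by rule were the 2 densest members of each class, the called member with the largest change each way in each comparison, and the member with most Pol II in Hist2, Hist3 and Hist4. Library values of some of them are printed for part of the groups or, as for Hist2h2ab and Hist2h2bb, not at all. Members and other genes outside this rule, Nr4a1, Npat, Slbp and Casp8ap2 excepted, were chosen after their values were seen. The members and gene lists were chosen with earlier results of these data known. Gene and stem-loop coordinates came from GENCODE and the mm10 genome, promoters from RefSeq.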

Additional observations from a re-analysis of the deposited data

Results flagged for a closer look

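For 16 histone genes the Pol II response to 1 h of LPS differed between KO and WT by the interaction term of limma, and for 2 at 18 h, where 18.4% and 14.8% of all genes did. Leaving out replicate 1, 2 or 3 of every group left 1 to 9 and 1 to 3 of the histone genes past the test. Values are the KO log2 change minus the WT log2 change. In Hist2, the term at 1 h was 0.50 for Hist2h3c2, 0.49 for Hist2h2aa2, -1.40 for Hist2h3c1 and -0.39 for Hist2h4. In Hist3 it was -0.50 for Hist3h2a. In the third Hist1 segment, the H2B and H2A genes Hist1h2bc (-0.80), Hist1h2bb (-0.49), Hist1h2ae (-0.34), Hist1h2bg (-0.33), Hist1h2bf (-0.33) and Hist1h2ad (-0.33) and the H3 genes Hist1h3c (-0.50) and Hist1h3d (-0.45) fell further in KO, while Hist1h4h (0.71), Hist1h2bh (0.62) and Hist1h4c (0.51) fell less. Hist1h2ae, Hist1h2bg, Hist1h2bf and Hist1h2ad had equal densities and stand for 1 measured stretch. At 18 h the term was -0.55 for Hist2h4 and -0.79 for Hist1h2bc. Over merged regions the 1 h term did not pass for the stretches that hold Hist1h2bc and Hist1h4c (-0.10), Hist2h3c1, Hist2h3c2 and Hist2h2aa2 (-0.032), Hist2h4 (-0.24), Hist3h2a (-0.20) and Hist1h4h (0.17), while at 18 h those of Hist2h4 (-0.53) and Hist1h2bc (-0.44) passed. No cause was tested.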

How the results depend on the processing

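Of 143 log2 changes of named members, 136 kept their direction and their side of the threshold with a pseudocount of 1, 141 without a filter on low values, 132 with median centring, 137 with a replicate block, 123 (1 of the 143 gave no value) with narrower windows, 117 with whole regions and 128 by merged region. With replicate 1, 2 or 3 of every group left out, 128, 101 and 104 did so. The cause of the reversals was not tested. With whole regions those that reversed were Pol II at Hist1h1t (LPS 18 h in KO, 0.12), Hist1h4h (KO against WT at 1 h, -0.28; interaction, -0.069) and Hist4h4 (KO against WT at 18 h, -0.46; LPS 18 h in WT, 0.75), and H3K27ac at Hist2h2ac and Hist2h2be (LPS 18 h in KO, -0.91 each) and Hist4h4 (KO against WT at 0 h, -0.20). By merged region they were Pol II at Hist1h2bc (LPS 18 h in WT, -0.030), Hist1h4h (KO against WT at 1 h, -0.046), Hist2h3c1 (same comparison, 0.028) and Hist4h4 (KO against WT at 18 h, -0.082; LPS 18 h in WT, 0.047), and H3K27ac at Hist2h2ac and Hist2h2be (LPS 18 h in KO, -0.46 each). With narrower windows Pol II at Hist1h2bc reversed (LPS 18 h in WT, -0.13).

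Counts of members passing moved by over 1.5 times as follows. The share of all genes passing can move with a setting as well, so a count without that share is no result about the histone genes. For Pol II, KO against WT, whole regions gave 12 at 0 h and narrower windows 1 at 18 h. Median centring gave 41 at 1 h and 2 at 18 h, where 36.9% and 23.0% of all genes passed. Members given their merged region gave 18, 36 and 28 at 0, 1 and 18 h. For the Pol II interaction, narrower windows gave 6 at 1 h, whole regions 13 at 18 h and merged regions 18 at 18 h. For H3K27ac, KO against WT, the 0 h count was 0 with narrower windows, whole regions, median centring or a replicate block, the 1 h count 6 with whole regions and 18 by merged region, and the 18 h count 3 with either; whole regions gave 3 for the interaction at 18 h. For H3K27ac without 1 KO library, the share of all genes passing is in brackets. Without KO 1 h replicate 1, KO against WT gave 52 at 1 h (45.7%) and 3 at 18 h (9.41%). LPS 1 h in KO gave 14 (49.4%), and the interaction 46 at 1 h (29.9%) and 1 at 18 h (2.87%). Without KO 18 h replicate 1, KO against WT gave 29 at 1 h (32.8%) and 3 at 18 h (4.66%). The interactions then gave 1 at 1 h (5.23%) and 1 at 18 h (1.97%). LPS 1 h in KO gave 31 (54.7%), within 1.5 times the main count.

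Leaving out replicate 1, 2 or 3 of every group gave, for Pol II, 1 to 4, 6 to 13 and 0 to 1 for KO against WT at 0, 1 and 18 h, 65 to 65 and 64 to 65 for LPS at 1 h in WT and KO, 50 to 53 and 53 to 57 at 18 h, and 1 to 9 and 1 to 3 for the interactions. For H3K27ac the ranges were 0 to 1, 0 to 53 and 0 to 14 for KO against WT, 37 to 58 and 11 to 25 for LPS at 1 h, 21 to 50 and 11 to 55 at 18 h, and 0 to 55 and 0 to 4 for the interactions. With the replicate block, Pol II counts were 2, 22 and 5 for KO against WT, and H3K27ac counts 0, 7 and 1. No share of all genes is given beside these ranges and counts. Replicate numbers were shared across groups, but deviations of same-numbered libraries correlated at -0.07 to 0.11 for Pol II and -0.43 to 0.08 for H3K27ac, so the number was not treated as a pairing. Depth differed between genotypes in H3K27ac (36.4 M tags in KO and 19.8 M in WT), and its part in those counts was not tested.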
